A study of Mus musculus with 2 samples.

Results

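The sterol and fatty acid synthesis genes are 31 genes in 3 groups. These are 5 regulators, 15 genes of the sterol arm and 11 genes of the fatty acid arm. The regulators are *Srebf1* and *Srebf2*, which encode the sterol regulatory element-binding proteins (SREBPs), with *Scap*, *Insig1* and *Insig2*, which control them. All 31 genes were picked by gene name. A gene was taken as measured where at least 1 of its non-control probes was well above background on both arrays. A probe was found for 30 of the 31, out of 37074 gene names on the array, and all 30 were measured, beside 20350 measured genes in all. *Acat2*, the listed cytosolic thiolase, had no probe under that name, so its RNA was not analysed here and only its promoter sequence was.

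RNA of MCMs, mouse cardiomyocytes bought from a supplier and used as a passaged culture, was hybridised to 2 one-colour microarrays, 1 for cells given the negative control siRNA (siRNA-NC) and 1 for cells given siRNA against *Ppp2r5d* (siRNA-*Ppp2r5d*). *Ppp2r5d* encodes a regulatory B subunit of protein phosphatase 2A, and the comparison asked which transcripts differ when it is depleted. Cells of both conditions grew with 2% fetal bovine serum, moved to glucose-free medium 48 h after transfection, and were collected at 64 h. With 1 culture and 1 array per condition there was no replicate check, so no p-value is given, and every difference below compares 2 RNA samples.

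Animal cells build cholesterol from acetyl-CoA through mevalonate, isoprenoid diphosphates, squalene and lanosterol, and build fatty acids from the same acetyl-CoA by carboxylation to malonyl-CoA, condensation to palmitate, elongation and desaturation. SREBPs are made as membrane-bound precursors, which SCAP escorts from the endoplasmic reticulum when sterols are scarce and INSIG proteins hold back when sterols are plentiful. The cleaved SREBP2 acts chiefly on sterol genes and SREBP1 chiefly on fatty acid genes. A heart muscle cell burns far more fatty acid than it makes, and mevalonate also supplies its ubiquinone and the prenyl groups of its proteins.

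The upstream sequence of 5 members is shown because the sterol arm has known control through promoter elements, and because the arms can then be read side by side: an early enzyme (*Hmgcs1*), a mevalonate kinase (*Mvk*), the isomerase with the highest value among the sterol enzymes (*Idi1*), an enzyme after squalene (*Cyp51*) and, as the fatty acid counterpart, fatty acid synthase (*Fasn*). Each run is the 250 bases before a RefSeq transcript start, written 5′ to 3′ on the gene's strand, on build GRCm38.p6. Positions are chr13:119690101-119690350 on the plus strand for *Hmgcs1*, chr5:114444019-114444268 on the plus strand for *Mvk*, chr13:8885356-8885605 on the plus strand for *Idi1*, chr5:4104698-4104947 on the minus strand for *Cyp51* and chr11:120824548-120824797 on the minus strand for *Fasn*. Capitals mark each CCAAT box on either strand (CCAAT or ATTGG, where NF-Y can bind beside SREBP) and each match to TCACNCCAC, a core of the sterol regulatory element.
Hmgcs1: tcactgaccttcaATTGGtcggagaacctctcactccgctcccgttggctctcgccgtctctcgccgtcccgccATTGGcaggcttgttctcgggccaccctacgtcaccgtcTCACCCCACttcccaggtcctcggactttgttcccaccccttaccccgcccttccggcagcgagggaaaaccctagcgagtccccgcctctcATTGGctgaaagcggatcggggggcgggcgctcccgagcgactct
Mvk: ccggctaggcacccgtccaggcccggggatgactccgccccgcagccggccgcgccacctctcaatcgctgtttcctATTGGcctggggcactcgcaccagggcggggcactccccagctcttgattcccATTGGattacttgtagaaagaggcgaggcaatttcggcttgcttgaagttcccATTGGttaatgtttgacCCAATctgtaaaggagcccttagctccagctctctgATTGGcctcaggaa
Idi1: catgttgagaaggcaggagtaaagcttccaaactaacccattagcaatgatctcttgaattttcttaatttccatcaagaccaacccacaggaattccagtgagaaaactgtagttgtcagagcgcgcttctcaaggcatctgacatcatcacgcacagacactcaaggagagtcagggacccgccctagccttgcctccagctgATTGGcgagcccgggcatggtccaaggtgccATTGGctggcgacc
Cyp51: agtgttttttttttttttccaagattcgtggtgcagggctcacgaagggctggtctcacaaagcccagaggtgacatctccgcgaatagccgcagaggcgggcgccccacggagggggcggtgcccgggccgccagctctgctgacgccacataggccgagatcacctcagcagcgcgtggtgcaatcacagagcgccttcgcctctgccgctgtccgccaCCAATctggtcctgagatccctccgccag
Fasn: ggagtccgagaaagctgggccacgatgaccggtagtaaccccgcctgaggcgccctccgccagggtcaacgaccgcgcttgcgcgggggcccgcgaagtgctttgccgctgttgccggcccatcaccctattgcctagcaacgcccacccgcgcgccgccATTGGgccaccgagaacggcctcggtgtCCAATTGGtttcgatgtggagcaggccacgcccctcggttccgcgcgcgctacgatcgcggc

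The *Hmgcs1* sequence held the only match to TCACNCCAC among the members, at position -137 from the start and 39 bases from a CCAAT box. RefSeq windows, 250 bases before a start and 50 after it, were on hand for 24 of the 31 genes and for 27025 genes in all. On both strands, TCACNCCAC was found for 1 of these 24 genes and for 1.44% of all genes. CCAAT boxes were more common in the sterol arm, at 10 of 11 genes with a window, against 4 of 5 regulators, 5 of 8 fatty acid genes and 41.1% of all genes. A gene was counted if any of its windows matched, and some genes had several windows. By window the shares were 71.4% in the sterol arm, 50% for regulators, 55.6% for fatty acid genes and 37.4% for all. *Mvk* carried 5 CCAAT boxes upstream of its start, and in *Fasn* a CCAAT and an ATTGG overlapped. The GC box GGGCGG, which Sp1 can bind, was matched in 10 of 11 sterol genes, 5 of 5 regulators, 3 of 8 fatty acid genes and 38.2% of all genes. By window these shares were 78.6%, 80%, 44.4% and 35.7%. *Acat2*, counted here though it had no probe, had a GC box and was the sterol gene without a CCAAT box. The E-box CACGTG was matched in 5 of the 24 genes and in 8.09% of all genes. These letters are a description of the sequence, and no binding was measured here.

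The *Ppp2r5d* probe had an intensity of 4701 in siRNA-NC and 676 in siRNA-*Ppp2r5d*, which was 6.09-fold lower after scaling, as the labels state. Each array gave 59305 non-control spots, of which 35174 to 35544 were well above background and 0 were saturated, and both arrays lay on 1 slide and were read in 1 scan. Of 14 cardiomyocyte markers, 8 were measured on both arrays, while *Myl2*, *Myl7*, *Actn2* and *Pln* were not well above background on either and *Myh6* and *Ryr2* were so on 1 array. Among the 8, *Nppa*, *Csrp3*, *Myl3*, *Tnni3* and *Myh7* were dim, at 16.6 to 48.1 in siRNA-NC. There *Actc1*, *Nkx2-5* and *Tnnt2* stood at 6443, 1078 and 858, and the measured fibroblast markers ran from 110 (*Pdgfra*) to 10877 (*Dcn*). Markers of other cells were also measured, namely 7 of 8 for fibroblasts, 4 of 4 for smooth muscle, 4 of 5 for macrophages, 1 of 5 for endothelium and 1 of 5 for adipocytes. Of the macrophage markers, *Ptprc* was measured on 1 of 7 probes, *Itgam* on 1 of 2, *Cd68* on 2 of 3 and *Csf1r* on 2 of 2. *Adgre1* was not well above background, and *Myh11* of smooth muscle was measured on 1 of 4 probes, at 27.1 in siRNA-NC. Among the adipocyte markers, *Adipoq* and *Cidec* were not well above background on either array. The median log2 fold change was 0.25 over the cardiomyocyte markers (from -0.19 to 1.93), 0.41 over the smooth muscle markers (from -0.38 to 2.41), -0.050 over the fibroblast markers (from -0.31 to 1.08) and -0.015 over the macrophage markers (from -0.77 to 0.13). Single markers thus differed by more than any synthesis gene did, up to 2.41 for *Cnn1* in smooth muscle and 1.93 for *Csrp3* in cardiomyocytes, both chosen after their values were seen. The part of the markers in the values below was not tested. In such a culture, fewer cells of a type and less RNA per cell cannot be told apart.

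The value used throughout is a log2 fold change, siRNA-*Ppp2r5d* over siRNA-NC, after each array was divided by its own 75th percentile of intensity. That percentile was 593 in siRNA-NC and 519 in siRNA-*Ppp2r5d*, so a gene with equal intensities on both arrays has a value of 0.19. Over all 20350 measured genes the median was 0.026, and 54.1% of genes were above 0. A gene with several probes takes their mean. Repeated spots of 1 probe differed with an SD of 0.036 (293 probes of 10 spots each), and the scanner software's error for a fold change of a probe with 1 spot was 0.20. Both errors belong to the arrays and leave out the spread between cultures.

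Among the listed genes, the sterol arm lay above the fatty acid arm. Of the 14 measured sterol genes 13 were above 0, with a median of 0.39 on the log2 scale and a range from -0.040 to 0.89. Of the 11 fatty acid genes 7 were above 0, with a median of 0.15 and a range from -0.52 to 0.60. The 5 regulators had 3 genes above 0 and a median of 0.063. The sterol median exceeded the fatty acid median by 0.24 and that of all genes by 0.37. Genes varied within an arm by about as much as the arms differed, with an SD between genes of 0.26 in the sterol arm and 0.29 in the fatty acid arm. Most of the sterol values were of modest size. Only *Stard4* and *Elovl6* were at least 1.5-fold higher, 2 of 30 members against 3.36% of all genes, and 0 members were at least 1.5-fold lower, against 4.65% of all genes. At 2-fold, the fold named in the study's methods, 0 members were higher and 0 lower, against 0.885% and 1.07% of all genes.

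**Figure D1:**
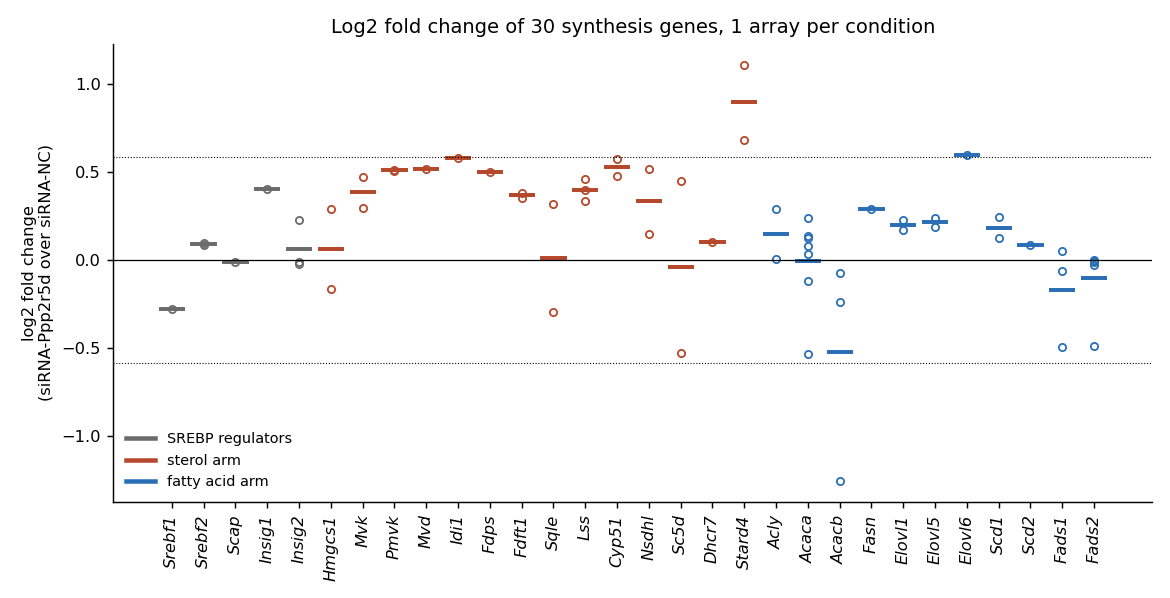
Log2 fold change (vertical axis) of each of the 30 measured genes, ordered by group and by step. Bars are gene means, open circles are single probes and dotted lines mark 1.5-fold. Most sterol genes from *Mvk* to *Cyp51* lie between 0.37 and 0.58, while *Hmgcs1*, *Sqle* and *Sc5d* have 1 probe on each side of 0. The zero line is that of the 75th percentile scaling, and a centring on spike-in probes lowers every value by the same amount and puts 6 of 11 fatty acid genes below 0.

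Among the regulators, the transcript with the lowest value was *Srebf1* and the one with the highest was *Insig1*. The *Srebf1* probe (chromosome 11, bases 60013214 to 60013273, mm9) had an intensity of 14204 in siRNA-NC and 10237 in siRNA-*Ppp2r5d*, a log2 fold change of -0.28. *Srebf1* encodes SREBP1, and its single probe was below 0 under each of the 12 other ways of processing the arrays, from -0.50 to -0.25. *Insig1*, which encodes an endoplasmic reticulum anchor of the SCAP and SREBP complex and is itself a target of SREBP, went from 1924 to 2230. Its log2 fold change of 0.41 was above that of 92.8% of measured genes, on 1 probe (chromosome 5, bases 28404246 to 28404305, mm9). It also stayed above 0 under all 12 alternatives. *Srebf1* and *Insig1* have 1 probe each, so the alternatives of probe filter and probe choice returned the same value. Those alternatives could not change the sign.

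The remaining regulators differed little between the arrays. *Srebf2*, encoding SREBP2, had probes at 4270 and 3993 and at 2101 and 1954 in siRNA-NC and siRNA-*Ppp2r5d*, and its log2 fold change was 0.092. The escort *Scap* went from 7164 to 6229, a value of -0.0093. *Insig2*, the second INSIG gene, averaged 0.063 over 3 probes that ran from -0.025 to 0.23. All 3 of these means lie within the scanner error of a single probe, and the signs of *Srebf2*, *Scap* and *Insig2* differed between alternatives.

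The 7 measured genes from HMG-CoA synthase to squalene synthase had the highest median of the steps. All 7 were above 0, with a median of 0.50 and a range from 0.063 to 0.58. *Idi1*, which interconverts the pair of isoprene diphosphates, was at the top of this step. It had an intensity of 22442 in siRNA-NC and 29316 in siRNA-*Ppp2r5d*, a 1.49-fold difference on 1 probe (chromosome 13, bases 8891524 to 8891583, mm9).

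The enzymes on either side of *Idi1* had similar values. *Mvd*, which decarboxylates mevalonate diphosphate, went from 2774 to 3473, a log2 fold change of 0.52. *Pmvk*, the phosphomevalonate kinase, went from 23143 to 28835 on its brighter probe and from 9388 to 11680 on the other, and both probes gave 0.51. *Fdps*, which makes farnesyl diphosphate, went from 49437 to 61041, a value of 0.50. These 3 genes were above 95.2% to 95.6% of all measured genes, and each was positive under all 12 alternatives. For *Mvd* and *Fdps*, with 1 probe each, the alternatives of probe filter and probe choice could not change the value.

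*Mvk* and *Fdft1* came next. *Mvk*, mevalonate kinase, went from 14626 to 17772 on one probe and from 833 to 895 on the other, with a mean of 0.39. *Fdft1*, squalene synthase, went from 28595 to 31992 and from 7072 to 8046, with a mean of 0.37. The probes of each gene gave the same direction, with 0.47 and 0.30 for *Mvk* and 0.35 and 0.38 for *Fdft1*.

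*Hmgcs1*, the cytosolic HMG-CoA synthase, was the exception at 0.063. Its bright probe went from 63827 to 68235, a log2 fold change of 0.29, while its dim probe went from 124 to 97.3, a value of -0.16. The dim probe was far below the 75th percentile of either array, and the mean gives both probes the same weight. On the brightest probe of each gene, the 7 genes of this step ran from 0.29 to 0.58. *Hmgcs1* was below 0 under 4 of 12 alternatives.

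After squalene the spread was wider. The 6 enzymes from *Sqle* to *Dhcr7* had a median of 0.22 and a range from -0.040 to 0.52, with 5 above 0. On the brightest probe of each, all 6 were above 0 with a median of 0.45. *Cyp51*, the lanosterol demethylase, had the highest value of the 6. It went from 16118 to 19615 on one probe and from 1420 to 1850 on the other, with a mean of 0.52. *Lss*, which folds squalene epoxide into lanosterol, gave 0.40 over 3 probes between 0.33 and 0.46.

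In the other 4 genes of this step the value hung on the probe or was small. *Nsdhl*, a dehydrogenase of sterol demethylation, went from 5632 to 7048 on its bright probe (0.52) and from 129 to 126 on its dim one (0.15), with a mean of 0.33. *Sqle*, squalene epoxidase and a slow step of the pathway, went from 34200 to 37253 (0.32) and from 33.2 to 23.6 (-0.30), with a mean of 0.0093. The dim *Sqle* probe was not far above the lowest intensity called well above background, 14.9 in siRNA-NC and 13.5 in siRNA-*Ppp2r5d*. *Dhcr7*, the final reductase of one branch, went from 1777 to 1670, a log2 fold change of 0.10 after scaling.

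*Sc5d*, the lathosterol desaturase, was different in that both of its probes were well lit and they pointed opposite ways. The probe at bases 42062857 to 42062916 of chromosome 9 (mm9) went from 6356 to 7575, a log2 fold change of 0.45. The probe at bases 42060087 to 42060146 went from 2032 to 1235, a value of -0.53. Which exon or transcript form each probe reads was not analysed here. Their mean of -0.040 made *Sc5d* the only measured sterol gene below 0, and it was below 0 under 11 of 12 alternatives but at 0.45 with its brightest probe alone.

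*Stard4* had the highest value of all members. It encodes a soluble carrier that moves cholesterol between membranes, so it is no enzyme of synthesis, and it is a known SREBP target. One probe went from 2013 to 2825, a log2 fold change of 0.68, and the other from 185 to 348, a value of 1.11. The mean of 0.89, or 1.86-fold, was above that of 98.8% of measured genes and lay between 0.68 and 0.92 under the 12 alternatives. Without *Stard4* the sterol median was 0.39.

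In the fatty acid arm the 4 genes of palmitate synthesis had values on both sides of 0. *Fasn*, fatty acid synthase, went from 54321 to 58145, a log2 fold change of 0.29. *Acly*, which splits citrate to cytosolic acetyl-CoA, went from 25128 to 26915 on its bright probe (0.29) and from 128 to 113 on its dim one (0.0065). With a loess scaling, which removes the trend of fold change with brightness over all genes, the *Fasn* value was 0.13.

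The acetyl-CoA carboxylases were lower than these or unclear. *Acaca*, the cytosolic carboxylase that makes malonyl-CoA for synthesis, averaged -0.0063 over 7 probes between -0.53 and 0.24. Only its brightest probe was above 1000, and that probe went from 10496 to 10815, a value of 0.24. *Acacb*, the mitochondrial form whose malonyl-CoA restrains fatty acid import for oxidation, had the lowest value of all members at -0.52. Its 3 probes went from 143 to 106, from 60.1 to 22.0 and from 30.9 to 25.7, so that all 3 were lower and all 3 were dim. *Acacb* was negative under all 12 alternatives, yet the size ran from -0.74 to -0.11.

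The 3 elongases were all above 0, with a median of 0.21, against 0.071 for the 4 synthesis genes. On the brightest probe of each gene this order turned, with 0.19 for elongation and 0.26 for synthesis. *Elovl6*, which extends palmitate to stearate, went from 5234 to 6925 on 1 probe (chromosome 3, bases 129337756 to 129337815, mm9), a 1.51-fold difference. Its log2 fold change of 0.60 became 0.52 with the loess scaling, under 1.5-fold. *Elovl1* and *Elovl5*, which act on longer saturated and on polyunsaturated chains, had means of 0.20 and 0.21. The bright *Elovl1* probe was nearly level in intensity, at 38691 and 38072, and that of *Elovl5* stood at 8462 and 8442. Their positive values are thus those that the scaling gives to level intensities, and they were 0.017 and 0.033 when arrays were centred on spike-in probes. In *Elovl1* and in *Elovl5*, 1 of 3 probes was not well above background on either array and was left out.

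The 4 desaturases had a median of -0.0095. *Scd1*, a stearoyl-CoA desaturase that makes oleate, went from 13958 to 13314 on its bright probe and from 37.2 to 38.5 on its dim one, with a mean of 0.18. *Scd2*, its close paralog, went from 86564 to 80409, which was 0.086 with the main scaling and -0.085 with loess. The polyunsaturated fatty acid desaturases were slightly lower. *Fads1* averaged -0.17 over 3 probes from -0.49 to 0.049, and *Fads2* averaged -0.10 over 5 probes from -0.49 to 0.0013. For both, the lowest value came from 1 probe of intermediate brightness, at 437 and 272 for *Fads1* and at 674 and 421 for *Fads2*.

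Brightness moved with the values of all genes and so bears on these lists. Measured genes with a mean intensity of 10000 or more had a median value of 0.16, and 86.4% of the 1751 such genes were above 0, against a median of -0.023 between 100 and 1000. After loess the median of the brightest class was 0.022. Among probes with an intensity of at least 1000 in siRNA-NC, the 19 sterol probes had a median of 0.47 with 18 above 0. The 13 fatty acid probes had a median of 0.17 with 11 above 0, the 8 regulator probes one of 0.039 with 4 above 0, and all 11809 such probes one of 0.072 with 64.9% above 0. Below 1000 the 6 sterol probes had a median of 0.22 and the 16 fatty acid probes one of -0.044. With loess, the sterol and fatty acid medians over genes were 0.33 and 0.10. The part of brightness in single genes was not tested beyond these values.

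**Figure D2:**
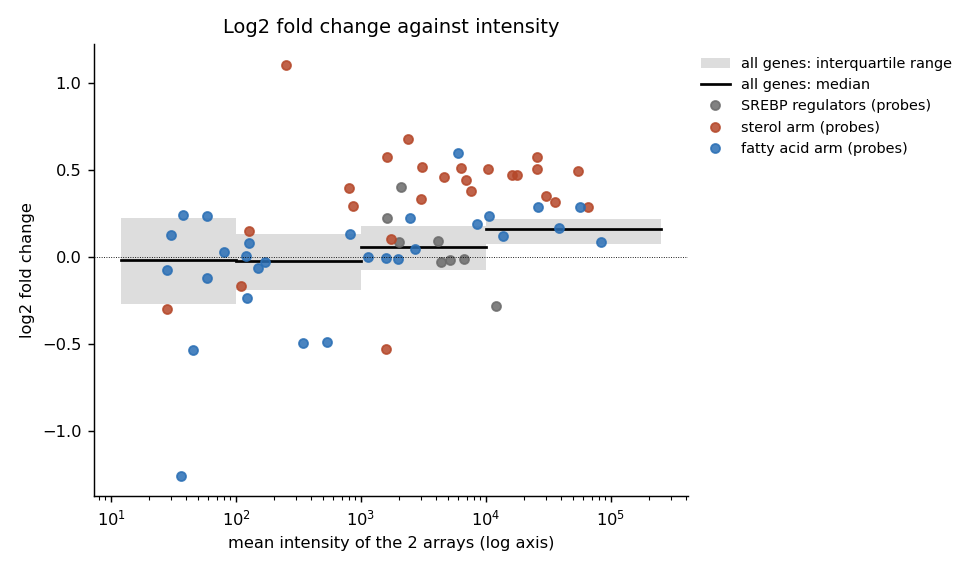
Log2 fold change of each member probe (vertical axis) against its mean intensity on the 2 arrays (horizontal log axis), with the median (black line) and interquartile range (grey) of all genes in 4 classes of intensity. The median of all genes goes from -0.016 in the dimmest class to 0.16 in the brightest, and all but 1 of the 19 sterol probes with at least 1000 in siRNA-NC lie above 0.

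Probes of 1 gene did not always point the same way, in the members or elsewhere. Of 20 members with 2 or more measured probes, 13 had all probes on the same side of 0 (65.0%), against 59.0% of 7166 genes. The median SD between probes of a gene was 0.17 for these members and 0.12 for all such genes. In the sterol arm, opposite signs were found for *Hmgcs1*, *Sqle* and *Sc5d*.

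The ordering of the arms was the same under every scaling, while the zero line was not. The sterol median was above the fatty acid median, and above that of all genes, under all 12 alternatives. Spike-in and detected-probe median centring shift all genes alike, so they could not change this order. The deposited values nearly equal the quantile normalization, so those are not separate checks. Centring each array on 8 spike-in probes, RNAs of known amount added to each sample, put the median of all genes at -0.15 and left 25.4% of genes above 0. Under that centring the sterol median was 0.21, with 10 of 14 genes above 0, and the fatty acid median was -0.031, with 5 of 11 above 0. Relative to all genes the sterol median stayed at 0.37, as it must when all genes shift alike. The spike-in probes themselves differed between the arrays by -0.039 to 0.061 in log2 intensity, before any scaling.

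**Figure D3:**
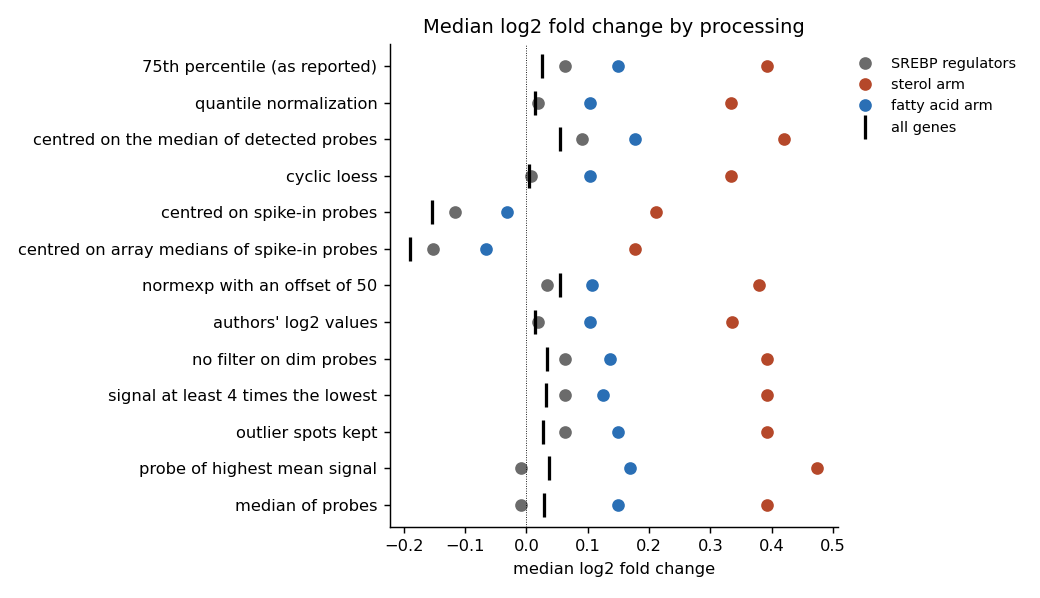
Median log2 fold change (horizontal axis) of the regulators, the sterol arm and the fatty acid arm under 13 ways of processing the same 2 arrays, with the median of all genes as a black tick. The sterol arm lies between 0.18 and 0.47 and to the right of the other points in each line, and the fatty acid arm is below 0 only in the pair of lines with spike-in centring.

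The other genes of sterol synthesis lay on both sides of 0. Of 8 such enzymes 4 were above 0 and 4 below, with a median of 0.011. Past 1.5-fold there were 0, against 3.36% of all genes higher and 4.65% lower. *Hsd17b7*, a ketoreductase of sterol demethylation, was highest at 0.48 with 3 probes between 0.41 and 0.56. *Ggps1*, which makes geranylgeranyl diphosphate, followed at 0.13. The lowest were *Ebp*, a sterol isomerase, at -0.22 and *Acat1*, the mitochondrial thiolase, at -0.11. With these 8 genes added to the 14, the sterol median was 0.23.

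Genes that process SREBPs or sense sterols had 3 of 8 above 0 and a median of -0.060. *Nr1h2*, a liver X receptor, was at 0.14. *Nr1h3*, the other liver X receptor, was the only one at least 1.5-fold lower, against 4.65% of all genes. It was at -0.63 over 2 dim probes, 1 at 93.0 and 59.4 (-0.45) and 1 at 62.6 and 31.4 (-0.80). *Erlin2*, an endoplasmic reticulum protein of the INSIG system, was at -0.39.

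Sterol transport, esterification and efflux showed 6 of 8 genes above 0 and a median of 0.14. *Lipa*, the lysosomal acid lipase, and *Npc1*, which passes cholesterol out of lysosomes, were highest at 0.37 and 0.29. The cholesterol exporters *Abca1* and *Abcg1*, known targets of liver X receptors, were lowest. *Abca1* went from 90.0 to 43.7, a log2 fold change of -0.85, and *Abcg1* from 32.4 to 16.2, a value of -0.81. Both were at least 1.5-fold lower, against 4.65% of all genes, and both rest on 1 dim probe.

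The other genes of fatty acid synthesis, elongation and desaturation ranged most widely. Of 21 listed, 18 were measured and *Thrsp*, *Elovl2* and *Elovl3* were not well above background on either array. The 18 had 10 above 0, 8 below and a median of 0.079, which was above the 0.011 of the other sterol enzymes. *Elovl4*, which builds very long chains, was highest at 0.94 on 1 probe, and *Hsd17b12*, the ketoreductase of elongation, followed at 0.53. *Elovl7*, an elongase of saturated chains, went from 423 to 152 on 1 probe, a log2 fold change of -1.28. With the main scaling it was the only gene of the list at least 2-fold lower, against 1.07% of all genes. *Hacd4*, a dehydratase of the elongation cycle, was at -0.99 with 3 probes between -1.02 and -0.96, and at -1.01 with loess.

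**Figure D4:**
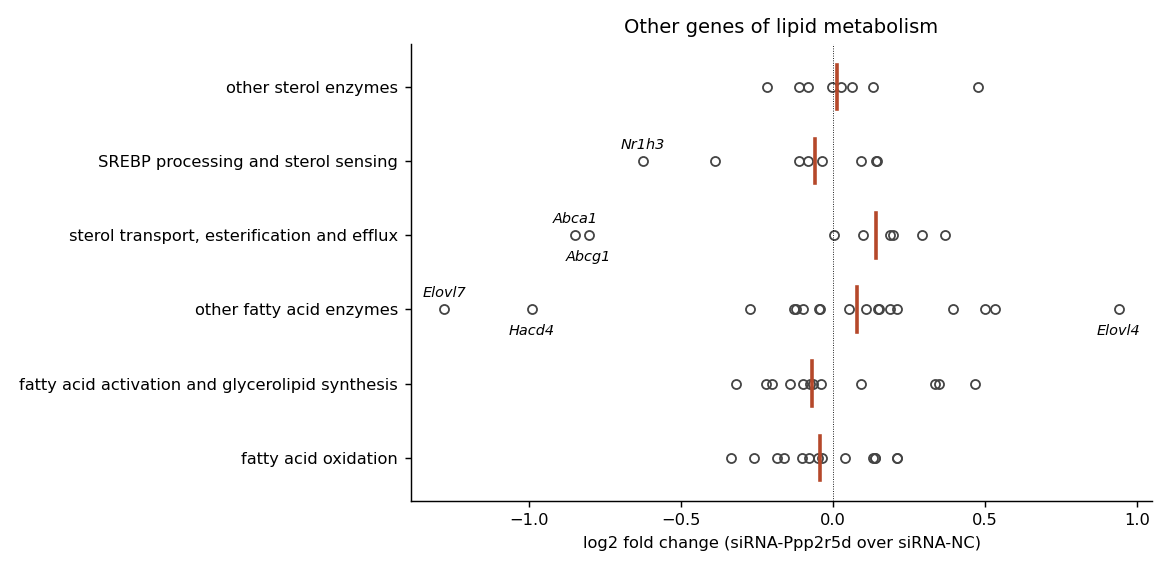
Log2 fold change (horizontal axis) of each measured gene in 6 further lists of lipid metabolism, with the list median as a red bar. List medians lie between -0.071 and 0.14 with the 75th percentile scaling, and the widest spread, from -1.28 to 0.94, is in the other fatty acid enzymes.

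Genes that use fatty acids had medians just below 0. For activation and glycerolipid synthesis 4 of 12 measured genes were above 0, with a median of -0.071, and *Acsl6* was not well above background. The acyl-CoA synthetases *Acsl4* and *Acsl3* were highest at 0.47 and 0.35, and the acyltransferases *Dgat2* and *Agpat2* were lowest at -0.32 and -0.22. For fatty acid oxidation 6 of 14 measured genes were above 0, with a median of -0.044, and *Ppara* was not well above background. *Ppard*, a fatty acid receptor, and *Cpt1c* were highest at 0.21 each, and *Cpt1a*, a carnitine transferase of fatty acid import, and *Hadh*, a dehydrogenase of oxidation, were lowest at -0.34 and -0.26. In both lists 0 genes were past 1.5-fold in either direction, against 3.36% of all genes higher and 4.65% lower.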

How the data were processed

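Total RNA of 1 siRNA-NC and 1 siRNA-*Ppp2r5d* culture was labelled with cyanine 3 and hybridised to Agilent mouse arrays. The authors deposited spot intensity values from Agilent Feature Extraction 10.7.1.1, background-subtracted, with flags, and a table of log2 values for 56605 probes, which differed from a quantile normalization of the intensities by a median of 1.8e-05. Control spots and outlier spots (126 and 95) were left out, log2 intensity was centred on the 75th percentile of each array, spots of a probe and then probes of a gene well above background on both arrays were averaged. Probe positions are the deposited mm9 coordinates. Promoter windows and older symbols come from RefSeq on GRCm38.p6. The number of arrays limits the precision, and the *t*-test of the methods was not computed with 1 array per condition.

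Members and lists were chosen with earlier results of these data known. All members are named, with the 2 highest and 2 lowest genes of each further list, except 1 gene that is not reported here. The alternatives were quantile, cyclic loess, spike-in and detected-probe median centring, normexp (offset 50), the deposited log2 values, no or a stricter dim-probe filter (4 times the lowest signal), outlier spots kept, the brightest probe or the median of probes, and other gene lists. Spike-in centring used the median difference probe by probe, and a second form, with the median of each array, was added after seeing the data. Python 3.11.15, NumPy 2.4.6, pandas 2.3.3, R 4.3.3 and limma 3.58.1 were used. The step from probes to genes was tested on simulated data, with changes larger than that of any synthesis gene.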

Additional observations from a re-analysis of the deposited data

How the results depend on the processing

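The sterol median, 0.39 as reported, was 0.33 with quantile normalization, 0.33 with cyclic loess, 0.33 with the deposited log2 values, 0.21 with spike-in centring, 0.18 with each array centred on its own spike-in median, 0.47 with the brightest probe of each gene and 0.23 with the other sterol enzymes added. The fatty acid median, 0.15 as reported, was 0.10 with quantile normalization, 0.10 with loess, 0.10 with the deposited log2 values, -0.031 and -0.066 with these spike-in centrings, 0.11 with normexp, 0.071 over the synthesis genes alone and 0.11 with the other fatty acid enzymes added. Their difference, 0.24 as reported, was 0.31 with the brightest probe. It was not computed with the further lists added, where the medians were 0.23 and 0.11. Among the further genes alone the order turned, with 0.011 for sterol and 0.079 for fatty acid enzymes. The number of members at least 1.5-fold higher, 2 as reported, was 1 under quantile, loess, both spike-in centrings, normexp and the deposited values, and the number at least 1.5-fold lower, 0 as reported, was 1 under both spike-in centrings. Each value given here beside one as reported moved by more than the spot SD of 0.036 or by over 1.5 times, and the cause was not tested.

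The sign of a member was the same as reported in 20 and 23 of 30 genes under the spike-in centrings and in 26 to 30 of 30 under the other alternatives. *Cyp51*, *Elovl6*, *Fasn*, *Fdft1*, *Fdps*, *Idi1*, *Insig1*, *Lss*, *Mvd*, *Mvk*, *Nsdhl*, *Pmvk* and *Stard4* were above 0 under all 12, and *Srebf1*, *Acacb* and *Fads2* below 0. Of these, *Elovl6*, *Fasn*, *Fdps*, *Idi1*, *Insig1*, *Mvd* and *Srebf1* have 1 probe each. For them the alternatives of probe filter and probe choice could not change the value. No paired analysis was possible because each condition had a single array, so no array was left out in turn either. Probes under an intensity of 100 lie behind values of *Sqle*, *Acacb*, *Nr1h3*, *Abca1* and *Abcg1*, among others.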
